A study of Mus musculus with 18 samples.

Results

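Hp, Apod, Mgp, Ecrg4, Fibin, Snorc, Crym and Sobp are 8 genes picked for their fall in mouse mammary tumours that carry an FGF receptor construct beside Wnt1. They were chosen by their log2 ratios, lower on receptor arrays than on Wnt1 arrays, and were found here as the array features whose platform symbol is one of these names. Each had 1 feature, so the results rest on 8 of 22575 features and 8 of 16887 genes. The choice used the arrays of this series. Every difference from Wnt1 below is therefore a description, with no test of its own, and it supports nothing about these genes.

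RNA of 18 primary mammary tumours was hybridised on 2-channel arrays, with the tumour in Cy5 and a pool of whole-mouse total RNA in Cy3. All titles carry FVB, MMTV and Wnt1, so every tumour here, the controls included, shares that strain and transgene name. Wnt1 alone is the control (6 arrays). The other groups add a receptor construct and have 4 arrays each: Wnt1_iFGFR1, here iFGFR1, Wnt1_iFGFR2, here iFGFR2, and Wnt1_iR2, here iR2. MMTV is a viral promoter that drives a transgene mainly in mammary epithelium, and Wnt1 is a ligand that cells secrete to signal through Frizzled receptors. The labels do not spell out iFGFR1, iFGFR2 or iR2, and they give no age, no drug treatment and no statement that each array is a separate animal. A p-value here thus only sets a difference of group means against the spread of these arrays, and that spread may be technical. The series title asks about cooperation of FGF receptor and Wnt-1 signals in mammary tumours.

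Each value is a log2 ratio of tumour over whole-mouse pool, so 0 means the level of the pool, and a difference of 1 is a factor of 2 if the deposited logarithm has base 2. The tissue label was read against epithelial regulators of the mammary gland. On the mean of the Wnt1 arrays Ehf stood at 3.01, Kit at 2.90 and Elf5 at 2.74 above the pool. The Elf5 mean was raised by Wnt1 replicate 3 (5.44). Other epithelial markers of the gland stood near the pool, among them Wap (-0.01), Itga2 (-0.05) and Foxa1 (-0.05). The iR2 arrays resembled each other most, with mean correlations to their own group of 0.945 to 0.956, against 0.778 to 0.880 among the Wnt1 arrays. For the genes described here 2 arrays stood apart, the library labelled Wnt1 replicate 3 and the library labelled iFGFR2 replicate 1. The main results are given with and without them. In whole tumours, fewer cells of a type and less RNA per cell cannot be told apart.

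Most of the 8 genes code for proteins that leave the cell or sit at its surface. Haptoglobin (Hp) is a plasma protein that captures free haemoglobin and rises in the acute phase response. Apolipoprotein D (Apod) is a lipocalin, a carrier of small greasy ligands, found in breast cyst fluid. Matrix Gla protein (Mgp) is a vitamin K-dependent matrix protein that holds back calcification. Ecrg4 codes for augurin, the secreted precursor of a peptide whose gene is often silenced in carcinomas. Fibin is a secreted factor known from fin bud formation in fish. Snorc is a membrane proteoglycan of cartilage cells. Crym and Sobp do not belong with a secreted or matrix class: Crym is a cytosolic protein that binds thyroid hormone, and Sobp is a nuclear zinc finger protein.

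Promoter sequence from RefSeq (GRCm38.p6) matched 4 of the 8 genes, Apod, Ecrg4, Fibin and Sobp. Apod and Sobp are shown because, of these 4, their promoters differ most in composition. The fall in iFGFR1 does not set them apart, since all 8 genes fell there. The 250 bases before each start site are printed on the minus strand, from chr16:31314809-31315058 for Apod and chr10:43174531-43174780 for Sobp, and capitals mark CG dinucleotides.
Apod: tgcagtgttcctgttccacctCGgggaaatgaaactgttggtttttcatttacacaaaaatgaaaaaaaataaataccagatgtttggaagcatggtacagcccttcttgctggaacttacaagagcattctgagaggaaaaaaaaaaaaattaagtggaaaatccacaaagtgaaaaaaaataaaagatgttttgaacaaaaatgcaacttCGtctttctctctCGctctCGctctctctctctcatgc
Sobp: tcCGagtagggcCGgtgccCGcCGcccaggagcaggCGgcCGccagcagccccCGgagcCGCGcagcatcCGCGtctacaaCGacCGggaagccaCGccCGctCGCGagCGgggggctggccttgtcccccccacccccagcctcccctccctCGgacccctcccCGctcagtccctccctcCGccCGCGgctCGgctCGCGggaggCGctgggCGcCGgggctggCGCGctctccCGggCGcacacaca
The Apod stretch was 36.4% G and C with 4 CG dinucleotides, and the Sobp stretch was 79.2% G and C with 33. Of 32851 promoters in the table, 6.2% had a lower G and C content than Apod and 98.4% a lower one than Sobp. Ecrg4 (48.4%, 5 CG) and Fibin (54.8%, 7 CG) lay near the median promoter (52.4%, 6 CG). Over the 300-base windows of the table, the motifs ATCAAAG (TCF/LEF), TTCNNNGAA (STAT), TGANTCA (AP-1) and CGGAAG (ETS) were searched on both strands, with matches allowed to overlap. They were found in 3.73%, 8.3%, 7.81% and 16.9% of all promoters and in 0 of the 4 promoters of these genes.

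Hp, Ecrg4 and Sobp lay below every Wnt1 array on nearly all receptor arrays, whichever construct the tumour carried, though for Sobp by a small margin outside iFGFR1. Apod, Mgp and Snorc were low in iFGFR1. On iFGFR2 and iR2 arrays Snorc stayed within or above the Wnt1 range, while the place of Apod and Mgp depended on Wnt1 replicate 3, which alone set the lower end of their Wnt1 range. Fibin and Crym lay between these patterns. By gene, 12 of 12 receptor arrays lay below every Wnt1 array for Hp, 11 for Ecrg4, 11 for Sobp, 9 for Crym, 6 for Fibin, 5 for Apod, 5 for Mgp and 3 for Snorc. Without Wnt1 replicate 3 the counts were 12 for Hp, 12 for Ecrg4, 12 for Fibin, 11 for Sobp, 10 for Mgp, 9 for Crym, 8 for Apod and 4 for Snorc. The share of all genes that reach such counts over the receptor arrays was not computed, so the counts only describe these genes.

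**Figure D1:**
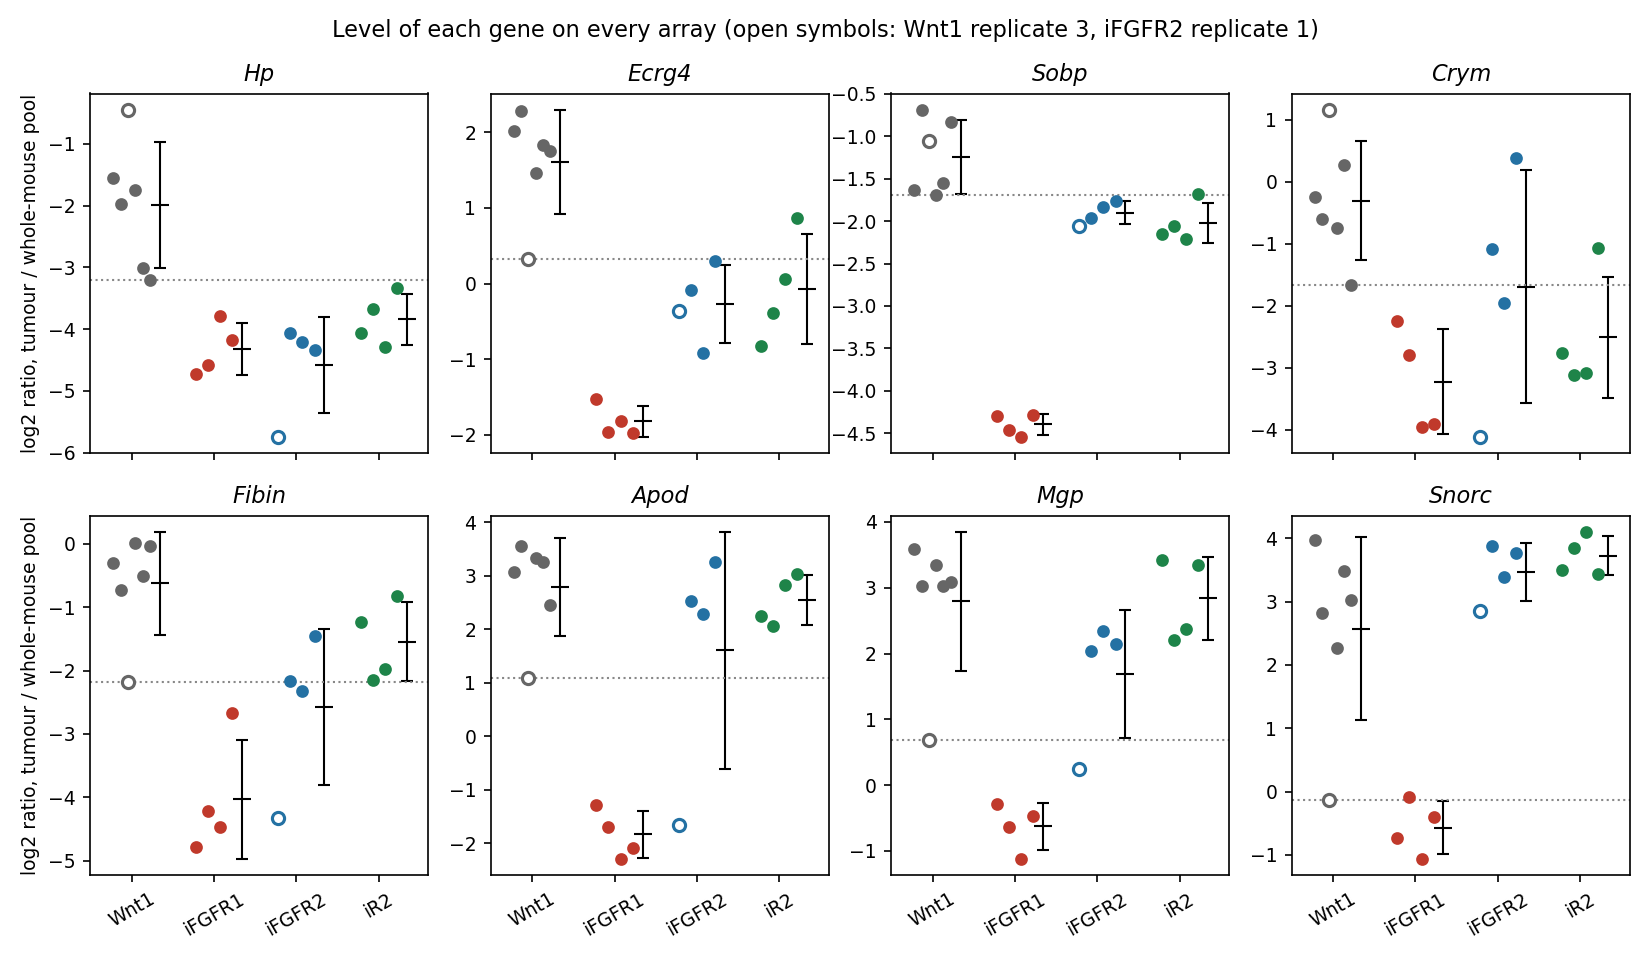
Log2 ratio of tumour over whole-mouse pool (vertical axis) for each gene on every array, by group (Wnt1 n = 6, other groups n = 4), with the group mean ± SD in black and a dotted line at the lowest Wnt1 array. All 4 iFGFR1 arrays sit below that line in every panel except Snorc, where 3 do, and open symbols mark Wnt1 replicate 3 and iFGFR2 replicate 1.

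Counted by array, the genes below every Wnt1 array numbered 8, 7, 8 and 8 of 8 on iFGFR1 replicates 1 to 4. On the iFGFR2 arrays they numbered 7, 3, 5 and 3, and on the iR2 arrays 4, 4, 4 and 1. Over all genes, the share below every Wnt1 array was 24%, 17.5%, 22.9% and 24.3% on the iFGFR1 arrays. It was 25%, 15.9%, 17.8% and 19.8% on the iFGFR2 arrays and 17.6%, 21.6%, 18.7% and 17.5% on the iR2 arrays. Without Wnt1 replicate 3, which had set the lowest Wnt1 value of 5 genes, the counts were 8 on each iFGFR1 array, 7, 5, 7 and 5 in iFGFR2 and 6, 7, 6 and 3 in iR2. The shares over all genes then rose too, to 28.3%, 22.1%, 27.5% and 28.7% in iFGFR1, 28.8%, 20.3%, 23.3% and 24.9% in iFGFR2 and 23.5%, 27.7%, 24.8% and 23.3% in iR2.

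In the fit over all genes (limma, Benjamini-Hochberg adjusted p under 0.05), 8 of the 8 were called lower in iFGFR1, where 7.06% of all genes were. In iFGFR2 the calls were Hp, Ecrg4 and Fibin, 3 of 8, against 1.46% of all genes. In iR2 they were Hp, Ecrg4, Sobp and Crym, 4 of 8, against 3.19% of all genes. By the same fit 0 of the 8 were called higher, where 8.38%, 1.97% and 3.91% of all genes were. An unadjusted p under 0.05 was reached by 8, 6 and 5 of 8 in iFGFR1, iFGFR2 and iR2, and by 29.8%, 20.9% and 23.4% of all genes. The groups did not overlap, with the receptor group lower, for 7, 3 and 1 of the 8, and for 4.61%, 1.97% and 7.35% of all genes. When the fit also took in the title number of each array, all 4 iR2 calls were lost (-1.56 for Ecrg4, -1.30 for Hp, -1.45 for Crym and -1.05 for Sobp). These 3 comparisons share the Wnt1 arrays and are the ones that chose the genes, so nothing is read from the counts. The median difference over the 8 was -3.28 in iFGFR1, -1.29 in iFGFR2 and -0.85 in iR2, beside 0.02, 0.01 and -0.05 over all genes.

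**Figure D2:**
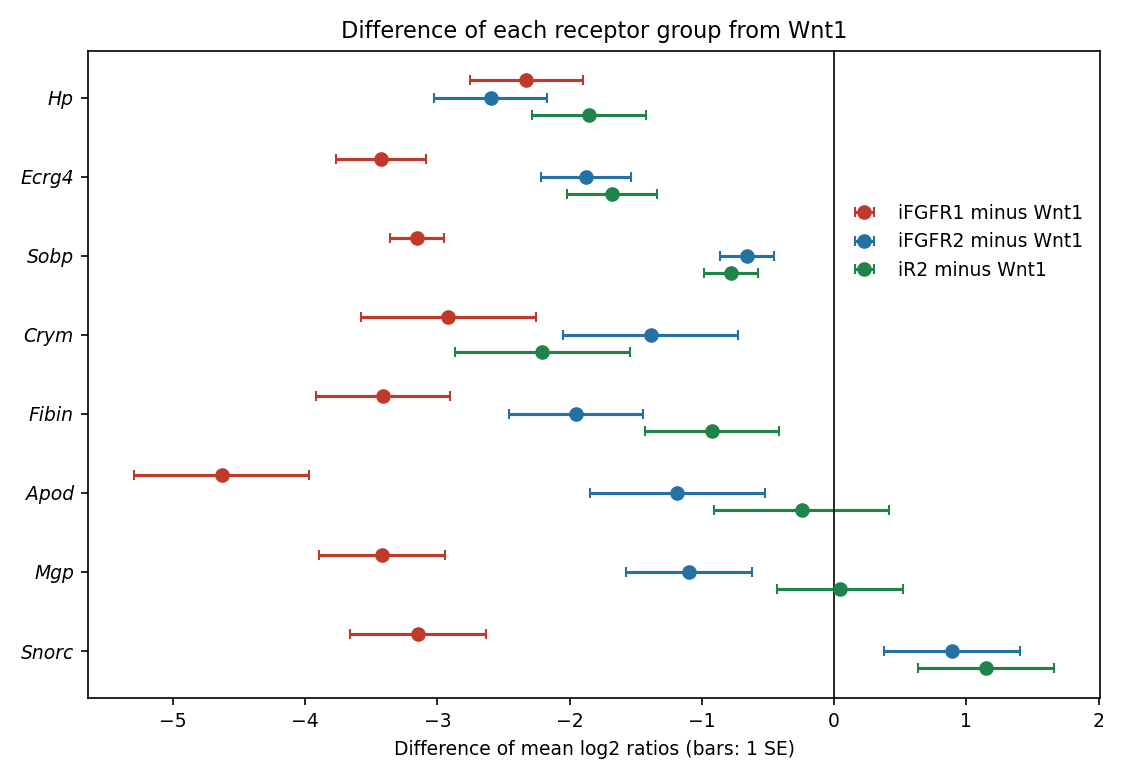
Difference of mean log2 ratios of each receptor group from Wnt1 (horizontal axis; points, with bars of 1 SE from the fit over 18 arrays). For all 8 genes the iFGFR1 point lies at -2.33 or lower, whereas Snorc lies above 0 in iFGFR2 and iR2.

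Hp, the haemoglobin carrier, was low in all receptor groups to a like extent. Its Wnt1 values ran from -3.21 through a median of -1.86 to -0.45. The iFGFR1 arrays read -4.72, -4.58, -3.79 and -4.17, the iFGFR2 arrays -5.74, -4.06, -4.21 and -4.34, and the iR2 arrays -4.06, -3.68, -4.29 and -3.34. No receptor array overlapped the Wnt1 arrays, although the nearest, iR2 replicate 4, lay close to Wnt1 replicate 6. Hp fell by 2.33 (SE 0.43, 5.02-fold) in iFGFR1. It fell by 2.60 (SE 0.43) in iFGFR2. In iR2 it fell by 1.85 (SE 0.43), a call lost without iR2 replicate 1 or 3 and with the title number in the fit (-1.30). Between receptor groups it differed by -0.27 (SE 0.47) for iFGFR2 minus iFGFR1 and by 0.47 (SE 0.47) for iR2 minus iFGFR1, neither of them called.

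Hp is usually induced together with other acute phase genes. Of 21 measured acute phase and scavenging genes, 0 fell and 1 rose in iFGFR1, 0 moved in iFGFR2 and 1 fell in iR2 by the limma fit (1, 6 and 9 at an unadjusted p under 0.05). Of all genes, 7.06%, 1.46% and 3.19% fell and 8.38%, 1.97% and 3.91% rose in iFGFR1, iFGFR2 and iR2. The unadjusted p was reached by 29.8%, 20.9% and 23.4% of all genes. The median difference of the acute phase list was -0.13, -0.29 and -0.53 in iFGFR1, iFGFR2 and iR2, beside 0.02, 0.01 and -0.05 over all genes. Its mean log2 ratio was -1.215 in iFGFR1, -1.42 in iFGFR2 and -1.561 in iR2, against -1.234 in Wnt1. The Wnt1 mean was raised by replicate 3 (-0.44), while the other Wnt1 arrays lay between -1.57 and -1.30. No shared direction with Hp is read from this list. The riser was Lcn2, a lipocalin that withholds iron from bacteria, at 3.55 ± 0.24 (SD, n = 4) in iFGFR1 and 2.19 ± 0.90 (n = 6) in Wnt1 (difference 1.36, SE 0.41, limma adjusted p = 0.0291). The gene that fell in iR2 was Apcs, the serum amyloid P component gene, by 0.84 (SE 0.20, limma adjusted p = 0.0162).

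Ecrg4, the augurin gene, was low in all receptor groups and lowest in iFGFR1. Its Wnt1 arrays ran from 0.33 (replicate 3) through a median of 1.79 to 2.28. On the iFGFR1 arrays it stood at -1.53, -1.96, -1.81 and -1.97, a narrow band well under the others. The iFGFR2 arrays read -0.36, -0.09, -0.92 and 0.30, and the iR2 arrays -0.83, -0.39, 0.06 and 0.87. Only iR2 replicate 4 reached into the Wnt1 range, and without Wnt1 replicate 3 it too lay below every Wnt1 array. Ecrg4 fell by 3.43 (SE 0.34, 10.8-fold) in iFGFR1, fell by 1.88 (SE 0.34) in iFGFR2 and fell by 1.68 (SE 0.34) in iR2. The iR2 call was lost with the title number in the fit (-1.56).

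Sobp, the nuclear zinc finger gene, had the least spread of the 8 and separated iFGFR1 from every other array. The Wnt1 arrays ran from -1.69 through a median of -1.30 to -0.69. Its iFGFR1 arrays read -4.30, -4.46, -4.54 and -4.28, the iFGFR2 arrays -2.06, -1.96, -1.83 and -1.76, and the iR2 arrays -2.15, -2.06, -2.21 and -1.68. The iFGFR2 arrays sat just under the Wnt1 range and iR2 replicate 4 just inside it. Sobp fell by 3.15 (SE 0.20, 8.91-fold) in iFGFR1 and by 0.78 (SE 0.20, 1.72-fold) in iR2. In iFGFR2 it differed by -0.66 (SE 0.20) and was not called. The iR2 call was lost under quantile normalization (-0.60) and with the title number in the fit (-1.05). It was also lost without Wnt1 replicate 2 or 6 or iR2 replicate 1, 2 or 3.

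Crym, the thyroid hormone binder of the cytosol, varied widely within groups. In Wnt1 it ran from -1.67 through a median of -0.42 to 1.16, the highest being replicate 3. In iFGFR1 the arrays read -2.25, -2.79, -3.96 and -3.90 and lay below all of them. The iFGFR2 arrays read -4.11, -1.09, -1.96 and 0.39, from the lowest value on any of the 18 arrays to a value inside the Wnt1 range. The iR2 arrays read -2.76, -3.12, -3.09 and -1.07, and 3 of 4 lay below every Wnt1 array. Crym fell by 2.92 (SE 0.66, 7.56-fold) in iFGFR1 and fell by 2.21 (SE 0.66) in iR2. It differed by -1.39 (SE 0.66) in iFGFR2, not called, and by -0.58 without iFGFR2 replicate 1. The iR2 call was lost under quantile normalization (-1.99) and with the title number in the fit (-1.45). It was also lost without any 1 of 12 arrays, among them Wnt1 replicate 3 (-1.91).

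Other genes that handle thyroid hormone had median differences of 0.11, 0.03 and -0.04 in iFGFR1, iFGFR2 and iR2. Of 13 measured, 0 were lower in any receptor group by the limma fit, 2 rose in iFGFR1, 0 in iFGFR2 and 1 in iR2 (3, 4 and 2 at an unadjusted p under 0.05, in either direction). Among all genes 8.38%, 1.97% and 3.91% rose, and 29.8%, 20.9% and 23.4% reached the unadjusted p. In iFGFR1 the carrier gene Ttr rose by 1.51 (SE 0.26, limma adjusted p = 0.000716) from -4.39 ± 0.21 to -2.88 ± 0.48, and the lipogenic target gene Thrsp by 2.64 (SE 0.53, limma adjusted p = 0.00268). In iR2 the transporter gene Slc16a10 rose by 0.86 (SE 0.21, limma adjusted p = 0.0212).

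**Figure D3:**
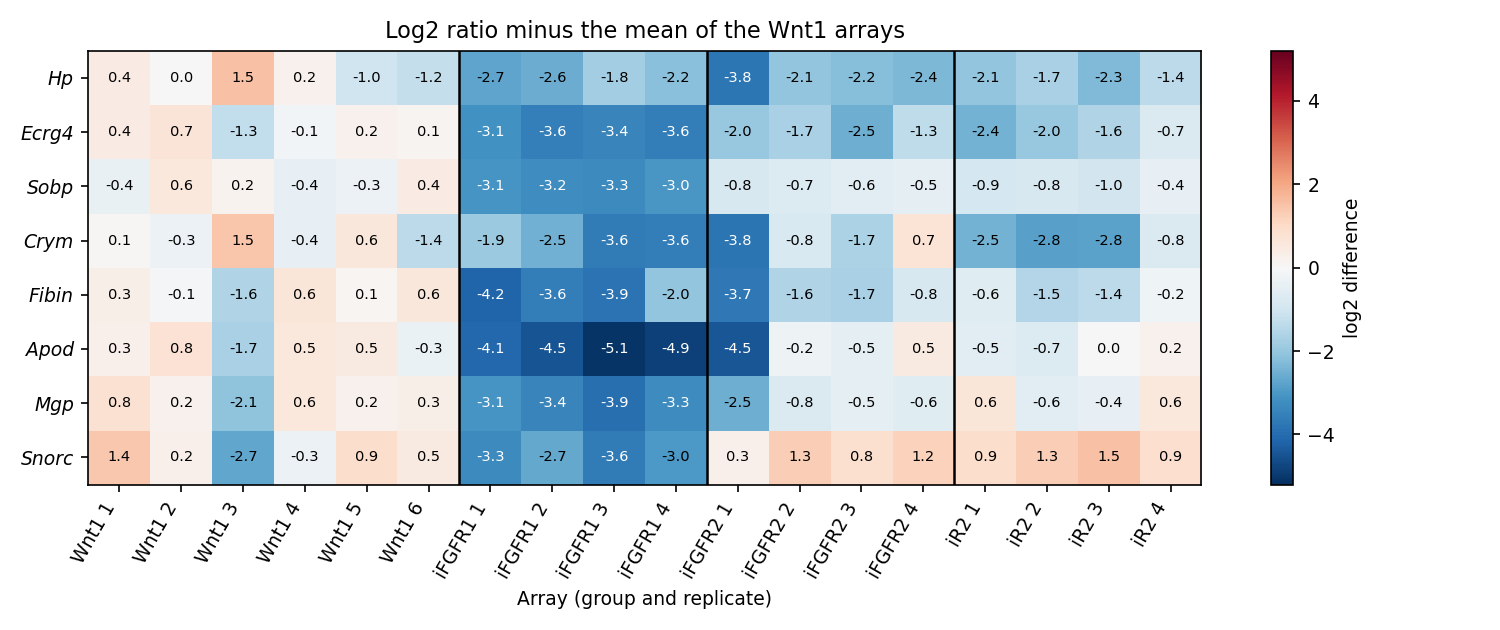
Log2 ratio of each gene (rows) on each array (columns) minus the mean of the 6 Wnt1 arrays, blue for lower and red for higher, with the value in each cell. The iFGFR1 columns are blue throughout, iFGFR2 replicate 1 is the lowest of its group in every row but Ecrg4, and Snorc is above the Wnt1 mean on all 8 iFGFR2 and iR2 arrays.

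Fibin, the secreted fin bud factor, was lowest in iFGFR1 and on 1 iFGFR2 array. Among Wnt1 arrays it ran from -2.18 (replicate 3) through a median of -0.40 to 0.01. Its values were -4.78, -4.21, -4.47 and -2.67 in iFGFR1 and, on the iFGFR2 arrays, -4.33, -2.17, -2.32 and -1.46. The iR2 arrays read -1.23, -2.15, -1.97 and -0.83, all inside the Wnt1 range, whose lower end was set by replicate 3 alone. Fibin fell by 3.41 (SE 0.51, 10.6-fold) in iFGFR1, fell by 1.95 (SE 0.51) in iFGFR2 and differed by -0.92 (SE 0.51) in iR2, not called. Without Wnt1 replicate 3, all 12 receptor arrays lay below every Wnt1 array. Without iFGFR2 replicate 1 the iFGFR2 difference was -1.37 and not called, and without both arrays the differences were -1.68 in iFGFR2 and -1.24 in iR2, both called. The iFGFR2 call was also lost without Wnt1 replicate 1, 2, 4, 5 or 6, iFGFR2 replicate 3 or iR2 replicate 1.

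Apod, the lipocalin of breast cyst fluid, had the deepest fall of the 8 in iFGFR1. Its Wnt1 arrays ran from 1.09 (replicate 3) through a median of 3.16 to 3.56. The iFGFR1 arrays stood at -1.28, -1.69, -2.29 and -2.08. The iFGFR2 arrays read -1.66, 2.54, 2.29 and 3.26, so that replicate 1 lay within the iFGFR1 range and the other three within the Wnt1 range. The iR2 arrays, at 2.26, 2.07, 2.84 and 3.04, all lay inside the Wnt1 range, whose lower end was Wnt1 replicate 3. Without it the lowest Wnt1 value was 2.46, and 2 of 4 iR2 and 2 of 4 iFGFR2 arrays lay below it. Apod fell by 4.63 (SE 0.66, 24.8-fold) in iFGFR1. It differed by -1.19 (SE 0.66) in iFGFR2, -0.10 without replicate 1 and -0.44 without both arrays, and by -0.24 (SE 0.66) in iR2, neither called.

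Among 15 other measured lipocalins and carriers of small ligands, 1 rose and 0 fell in iFGFR1 by the limma fit, 0 moved in iFGFR2, and 2 fell in iR2 (5, 5 and 7 at an unadjusted p under 0.05). Their median difference was 0.01, 0.00 and -0.41. The shares of all genes were 7.06%, 1.46% and 3.19% lower and 8.38%, 1.97% and 3.91% higher. At the unadjusted p they were 29.8%, 20.9% and 23.4%. The riser was Lcn2. In iR2 the prostaglandin D synthase gene Ptgds fell by 0.68 (SE 0.20, limma adjusted p = 0.0404), and the retinoic acid binder gene Crabp1 fell by 1.31 (SE 0.39, limma adjusted p = 0.0456).

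Mgp, the calcification inhibitor, was low in iFGFR1 and, of the other receptor arrays, lowest on iFGFR2 replicate 1. Its Wnt1 arrays ran from 0.68 (replicate 3) through a median of 3.05 to 3.59, with the other five between 3.03 and 3.59. The iFGFR1 arrays were at -0.29, -0.63, -1.12 and -0.47, the iFGFR2 arrays 0.24, 2.04, 2.34 and 2.15, and the iR2 arrays 3.42, 2.21, 2.37 and 3.35. Mgp fell by 3.42 (SE 0.48, 10.7-fold) in iFGFR1. It differed by -1.10 (SE 0.48) in iFGFR2 and by 0.05 (SE 0.48) in iR2, neither called. Without Wnt1 replicate 3 the iFGFR2 difference was -1.52 and was called, and the iR2 difference turned to -0.38, not called. Then all 4 iFGFR2 and 2 of 4 iR2 arrays lay below every Wnt1 array. Without iFGFR2 replicate 1 the iFGFR2 difference was -0.61, not called, and without both arrays it was -1.03 and called.

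Of 16 measured genes of vitamin K chemistry and matrix mineral, the field of Mgp, 3 fell and 0 rose in iFGFR1, where 7.06% of all genes fell. In iFGFR2 and in iR2 1 of 16 fell and 0 rose (6, 6 and 4 at an unadjusted p under 0.05 in iFGFR1, iFGFR2 and iR2). The median difference was -0.17, -0.02 and -0.13. In iFGFR2 and iR2, 1.46% and 3.19% of all genes fell. The unadjusted p was reached by 29.8%, 20.9% and 23.4% of all genes in iFGFR1, iFGFR2 and iR2. In iFGFR1 the vitamin K-dependent growth factor gene Gas6 fell by 1.85 (SE 0.26, limma adjusted p = 0.000127), from 0.18 ± 0.48 to -1.66 ± 0.39. The pyrophosphate transporter gene Ank fell by 1.80 (SE 0.29, limma adjusted p = 0.000386) and Vkorc1, the enzyme that recycles vitamin K, fell by 0.62 (SE 0.20, limma adjusted p = 0.0431). In iFGFR2 Gas6 fell by 0.96 (SE 0.26, limma adjusted p = 0.0471), and in iR2 Prrg2, another Gla protein gene, fell by 0.60 (SE 0.17, limma adjusted p = 0.0402).

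Snorc, the cartilage proteoglycan gene, was low in iFGFR1 and on 1 Wnt1 array and nowhere else. The Wnt1 arrays ran from -0.13 (replicate 3) through a median of 2.92 to 3.97. On the iFGFR1 arrays the ratios were -0.74, -0.09, -1.06 and -0.40, so that Wnt1 replicate 3 lay among them. The iFGFR2 arrays read 2.85, 3.87, 3.39 and 3.76 and the iR2 arrays 3.50, 3.85, 4.10 and 3.44, all above the Wnt1 mean. Snorc fell by 3.15 (SE 0.51, 8.85-fold) in iFGFR1. It differed by 0.89 (SE 0.51) in iFGFR2 and by 1.15 (SE 0.51) in iR2, neither called. Without Wnt1 replicate 3 these differences were -3.69, 0.35 and 0.61 in iFGFR1, iFGFR2 and iR2, and all iFGFR1 arrays lay below the Wnt1 arrays. The iR2 difference was called with array weights (0.88). It was also called with each array divided by its median absolute deviation. The value there, 2.46, is in units of that deviation and cannot be set beside the log2 differences.

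Cartilage matrix genes moved both ways beside Snorc. Of 20 measured, 4 fell and 5 rose in iFGFR1, 0 fell and 4 rose in iFGFR2, and 2 fell and 2 rose in iR2 (14, 9 and 6 at an unadjusted p under 0.05). Their median difference was 0.44, 0.19 and -0.06. Among all genes 7.06%, 1.46% and 3.19% fell and 8.38%, 1.97% and 3.91% rose. The unadjusted p was reached by 29.8%, 20.9% and 23.4%. In iFGFR1 the collagen IX chain gene Col9a3 fell by 2.28 (SE 0.39, limma adjusted p = 0.000745) and the matrilin gene Matn4 fell by 1.68 (SE 0.42, limma adjusted p = 0.0103), while Sox5, a transcription factor of chondrocytes, rose by 1.92 (SE 0.47, limma adjusted p = 0.0103). In iFGFR2 the other collagen IX chains rose, Col9a1 by 1.54 (SE 0.31, limma adjusted p = 0.0119) and Col9a2 by 1.23 (SE 0.24, limma adjusted p = 0.0118), and Comp, a cartilage glycoprotein gene, rose by 1.75 (SE 0.30, limma adjusted p = 0.00559). In iR2 Col9a1 rose by 1.28 (SE 0.31), and Epyc and Matn1 fell by 1.34 (SE 0.36) and 1.02 (SE 0.28).

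Between receptor groups, the arrays of iFGFR1 entered the choice, so these values too are descriptions. The fit called 5 of the 8 higher in iFGFR2 than in iFGFR1 (Snorc, Apod, Sobp, Mgp and Ecrg4, where 1.21% of all genes were called higher) and 6 of 8 higher in iR2 than in iFGFR1 (the same 5 and Fibin, against 4.81%). Snorc was higher than in iFGFR1 by 4.04 (SE 0.56, 16.4-fold) in iFGFR2 and by 4.29 (SE 0.56) in iR2, and its groups did not overlap. The groups stood apart, with iFGFR1 lower, for 4 of the 8 against iFGFR2 (3.36% of all genes) and 6 of the 8 against iR2 (9.21%). Hp and Crym were called in neither comparison. Leaving out iFGFR1 replicate 3 or iFGFR2 replicate 3 or 4 reduced the 5 calls to 2, 3 and 2, and leaving out iFGFR2 replicate 1 added Fibin to the calls and removed Ecrg4.

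The iR2 and iFGFR2 arrays also entered the choice, as arrays of receptor tumours, so their difference is a description too. The limma fit called 0 of the 8 between iR2 and iFGFR2, where 1.34% of all genes were called, and 1 of 8, Mgp, had an unadjusted p under 0.05, beside 15.4% of all genes. Mgp was higher in iR2 by 1.14 (SE 0.52), with overlapping groups, and by 0.66 without iFGFR2 replicate 1. Apod differed by 0.94 (SE 0.72) with that array and by -0.15 without it, and Crym by -0.82 (SE 0.72) and -1.62. Sobp differed by -0.12 (SE 0.22) and Ecrg4 by 0.19 (SE 0.37).

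Within groups, the genes moved together only in part. The Pearson correlation of deviations from the group means over 18 arrays had a median of 0.20 over the 28 pairs and ran from -0.48 (Hp and Snorc) to 0.81 (Fibin and Mgp). It was 0.79 for Apod and Mgp, 0.72 for Mgp and Snorc and 0.71 for Apod and Fibin. The values moved when the 2 arrays named above were left out. Without Wnt1 replicate 3 and iFGFR2 replicate 1 the median was 0.11, and the values for these pairs were 0.47 (Fibin and Mgp), 0.26, -0.08 and 0.00, while Apod and Crym correlated at 0.81 and Apod and Ecrg4 at 0.67. The points share arrays and dye, so these are descriptions over 18 and 16 arrays.

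Wnt1 replicate 3 held the lowest value of its group for 5 of the 8 genes (Apod, Ecrg4, Fibin, Mgp and Snorc) and the highest for 2 (Hp and Crym). Of all genes, 22.6% had their lowest and 23.8% their highest Wnt1 value there. The library labelled iFGFR2 replicate 1 held the lowest value of its group for 7 of the 8, all but Ecrg4, beside 29.1% of all genes. Among iR2 arrays, replicate 4 held the highest value for 6 of the 8, beside 24.6% of all genes.

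The genes most like each member were named by Pearson's r over the 18 arrays. For Apod they were the urea transporter gene Slc14a1 (r = 0.97) and the ectodysplasin receptor gene Edar (0.96). For Mgp they were Slc16a11 (0.97) and Ly6d (0.96), for Snorc Plppr4 (0.95) and Cttnbp2 (0.94), and for Ecrg4 Rbms3 (0.95) and Chdh (0.94). For Sobp they were Maob, a monoamine oxidase gene (0.96), and the Wnt inhibitor gene Wif1 (0.94), for Fibin the membrane protease gene Mmp14 and the activin subunit gene Inhba (0.93 each), for Hp Tgfbr2 and Muc4 (0.88 each), and for Crym Olfr609 (0.88) and Spen (0.83). By deviations within groups, the closest were Wdr92 and Lpar3 for Apod (0.96 each), Evpl and again Slc16a11 for Mgp (0.95 and 0.94), Mamdc2 and Eif3m for Snorc (0.93 and 0.88), and Lrrc66 and Sgms1 for Fibin (0.92 and 0.91). For Hp they were Dlg1 and Kpnb1 (0.85 and 0.81), for Crym Il6ra and Plcb3 (0.85 and 0.84), for Sobp Hypk and Gpr162 (0.83 each) and for Ecrg4 Zfp358 and Nebl (0.80 each). Without the 2 arrays these within-group values were 0.81 and 0.71 for Apod, 0.83 and 0.66 for Mgp, 0.68 and 0.59 for Snorc, 0.80 and 0.78 for Fibin, 0.65 and 0.63 for Hp, 0.73 and 0.65 for Crym, 0.92 and 0.82 for Sobp and 0.65 and 0.62 for Ecrg4. The genes were picked as the closest of 16887, so the size of r is fixed in part by that choice.

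Fibroblast and basal markers included genes that were lower in iFGFR1 as well. Of 12 fibroblast markers, 7 fell and 1 rose in iFGFR1, 1 fell in iFGFR2 and 1 fell in iR2 (10, 6 and 3 at an unadjusted p under 0.05), with median differences of -1.03, -0.70 and -0.36. Over all genes, 7.06%, 1.46% and 3.19% fell, 8.38% rose in iFGFR1, and 29.8%, 20.9% and 23.4% reached the unadjusted p. The mean log2 ratio of the fibroblast markers lay between -3.00 and -2.37 on the iFGFR1 arrays, between -2.70 and -2.21 in iFGFR2, between -2.35 and -2.20 in iR2 and between -2.22 and -0.98 in Wnt1. The upper end in Wnt1 was replicate 3, and the other Wnt1 arrays reached at most -1.84. In iFGFR1 the fibroblast receptor gene Pdgfra fell by 2.61 (SE 0.28, limma adjusted p = 8.33e-06), Fbln1 fell by 1.83 (SE 0.21, limma adjusted p = 1.55e-05) and Col1a2 fell by 1.59 (SE 0.35, limma adjusted p = 0.00487). Other fibroblast markers had a higher mean in iFGFR1 than in Wnt1. They were Dpt (-1.26 against -2.71), Pi16 (-0.32 against -0.92) and Mfap5 (-1.59 against -1.68). Over 18 arrays the mean of this list correlated with the 8 genes at 0.20 (Snorc) to 0.79 (Hp) in level. Within groups the values were -0.58 for Ecrg4, -0.57 for Snorc, -0.56 for Mgp, -0.32 for Apod, -0.26 for Fibin, 0.09 for Sobp, 0.27 for Crym and 0.55 for Hp, and without the 2 arrays they ran from -0.20 (Apod) to 0.41 (Snorc). The part of these cells in the falls of the 8 genes was not tested.

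Of 12 myoepithelial and basal markers, 6 fell and 1 rose in iFGFR1, 0 moved in iFGFR2 (7 at an unadjusted p under 0.05 by limma) and 1, Acta2, rose in iR2, with median differences of -1.14, -0.30 and -0.25. Their mean ran from -1.11 to -0.84 in iFGFR1, from -0.46 to -0.29 in iFGFR2, from -0.51 to 0.07 in iR2 and from -0.38 to 0.23 in Wnt1, so iFGFR1 stood clear of the rest. Over all genes, 7.06% fell and 8.38% rose in iFGFR1, 20.9% reached the unadjusted p in iFGFR2 and 3.91% rose in iR2. Tagln fell by 1.17 (SE 0.16), Lgr5 fell by 2.90 (SE 0.43) and Snai2 fell by 1.70 (SE 0.30) in iFGFR1 (limma adjusted p = 0.000104, 0.000215 and 0.000939). Not all basal markers fell. Krt17 (1.18 against 0.20 in Wnt1) and Acta2 (-1.84 against -2.76) had higher means in iFGFR1, and Trp63 was level (1.76 against 1.78). Over 18 arrays the mean of this list correlated with the 8 genes at 0.51 (Snorc) to 0.91 (Sobp) in level. Within groups the values ran from -0.64 (Snorc) to 0.64 (Sobp), and without the 2 arrays from -0.46 (Snorc) to 0.66 (Sobp). Its part in the falls was not tested.

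Matricellular and small leucine-rich matrix proteins counted 7 lower and 2 higher of 28 in iFGFR1, 1 lower and 0 higher in iFGFR2, and 1 lower and 1 higher in iR2 (12, 11 and 9 at an unadjusted p under 0.05). The shares of all genes were 7.06%, 1.46% and 3.19% lower, 8.38%, 1.97% and 3.91% higher, and 29.8%, 20.9% and 23.4% at the unadjusted p. The median difference of this list was -0.18, -0.28 and -0.31. Its mean log2 ratio was -0.89 on Wnt1 replicate 3 and between -1.95 and -1.66 on the other Wnt1 arrays. The group means were -2.02 in iFGFR1, -1.92 in iFGFR2 and -1.93 in iR2, so the distance from Wnt1 rests in part on that array. Fbln2 fell by 1.23 (SE 0.19) and Prelp, a proteoglycan of basement membranes, fell by 1.12 (SE 0.18) in iFGFR1 (limma adjusted p = 0.00026 and 0.000453). In iFGFR2 Spon1 fell by 1.27 (SE 0.33, limma adjusted p = 0.038), and in iR2 Fbln1 fell by 1.34 (SE 0.21, limma adjusted p = 0.00213) and Ccn1 rose by 0.91 (SE 0.26, limma adjusted p = 0.0404).

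Few markers of other cells were called. Of 10 adipocyte and 9 pericyte markers 0 were called in any receptor group by limma (0, 1 and 3, and 3, 0 and 0, at an unadjusted p under 0.05 in iFGFR1, iFGFR2 and iR2). Of 11 endothelial markers only Eng was called, lower by 0.95 (SE 0.23) in iFGFR1, and of 9 macrophage markers C1qa fell by 0.76 (SE 0.22) and Fcgr1 rose by 0.50 (SE 0.17) there. Prom1 was the 1 hormone-sensing marker of 8 called, higher by 2.85 (SE 0.25), 1.88 and 1.74 in iFGFR1, iFGFR2 and iR2. Of 11 luminal progenitor and alveolar markers, Csn3 and Cxcl1 rose and Aldh1a3 fell in iFGFR1, and Kit rose in iFGFR2 (0.99) and iR2 (0.67). The median difference of that list was 0.47, 0.84 and 0.67 in iFGFR1, iFGFR2 and iR2, with 6, 4 and 6 of 11 at an unadjusted p under 0.05. Beside these lists, 7.06%, 1.46% and 3.19% of all genes fell and 8.38%, 1.97% and 3.91% rose. The unadjusted p was reached by 29.8%, 20.9% and 23.4% of all genes.

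**Figure D4:**
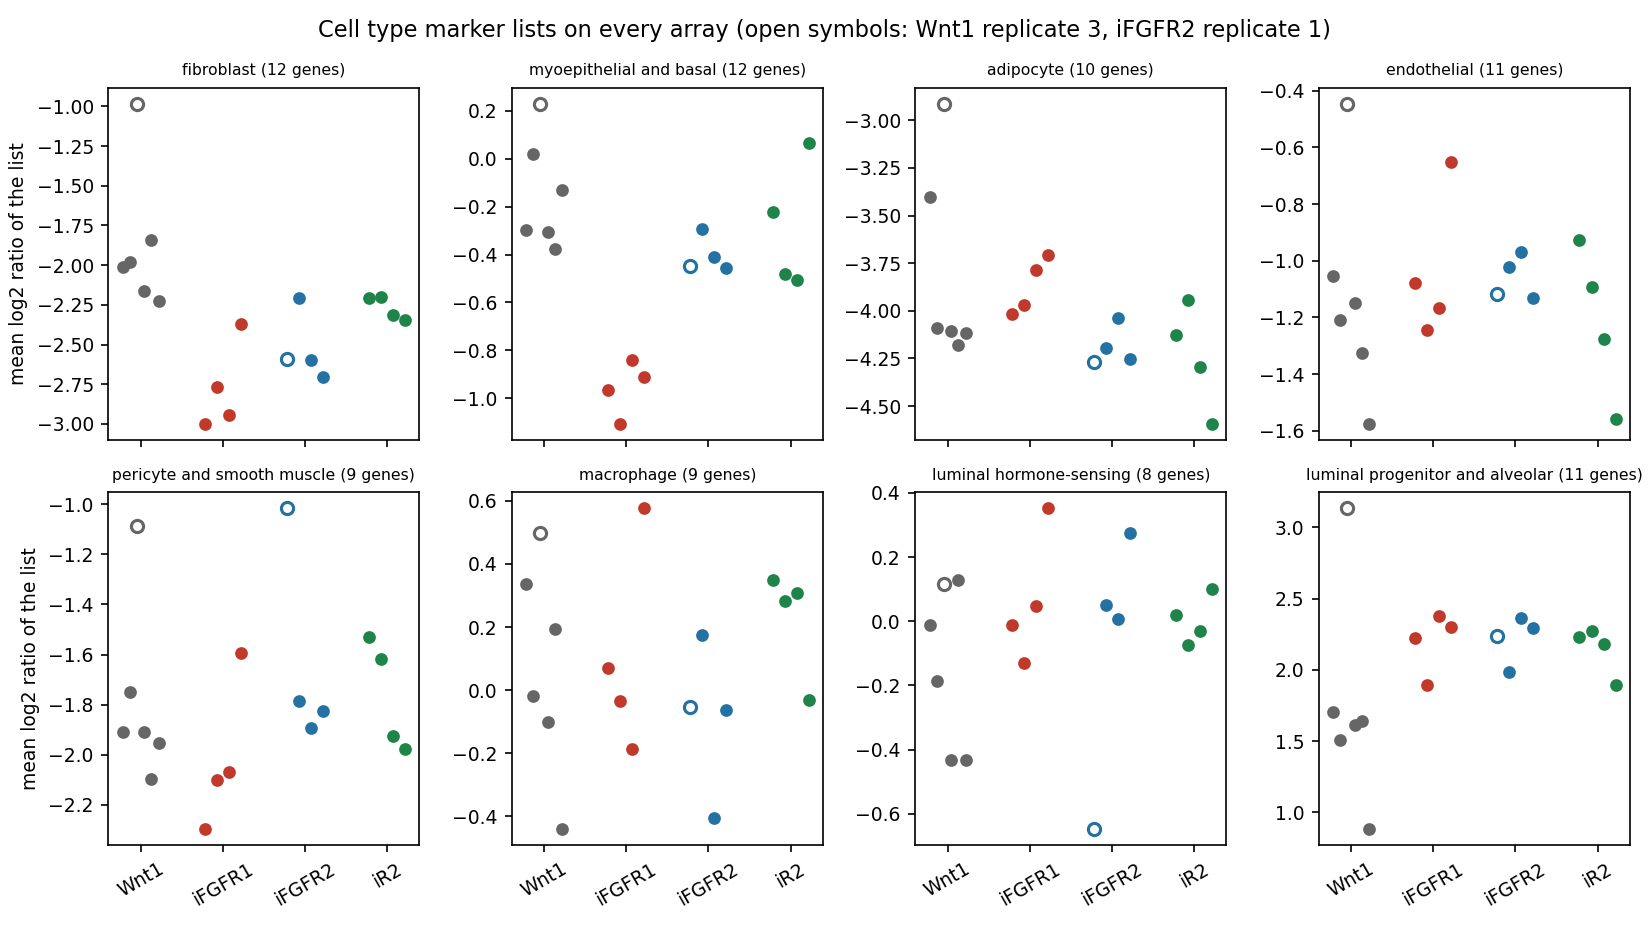
Mean log2 ratio of each cell type marker list (vertical axis, with the number of measured genes) on every array, by group, with Wnt1 replicate 3 and iFGFR2 replicate 1 as open symbols. The iFGFR1 arrays lie below all other arrays for the myoepithelial and basal list. Wnt1 replicate 3 lies above all other arrays for the fibroblast list (-0.98) and the luminal progenitor and alveolar list (3.13). It does so too for the adipocyte (-2.91), endothelial (-0.445) and myoepithelial and basal (0.23) lists, but not for the remaining lists.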

How the data were processed

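The authors deposited 1 table of log2 ratios (base not stated, read as 2) of tumour over whole-mouse RNA, with the direction taken from the dyes, per the labels. No source used here gives the scanner, background correction or normalization. The table had 0 empty cells, values from -9.03 to 7.57 and array medians from -0.02 to 0.01. Features were named by the platform annotation (18658 with 1 symbol, 30 with several, 3887 with none), and features of a symbol were averaged to 16887 genes, all tested. The 4 groups were fitted together with limma 3.58.1 in R 4.3.3 (lmFit, eBayes, Benjamini-Hochberg over all genes, threshold 0.05), and an SE is that of the fit. Precision is limited by the number of arrays. In data simulated for iFGFR1 minus Wnt1 over 16887 genes, 56% of falls of 1 log2 unit and 94% of falls of 2 were recovered. The simulated falls were put on genes drawn at random from all, so these are not the rates of the 8 genes. The SE of the 8 ran from 0.20 (Sobp) to 0.66 (Apod and Crym). The members, lists and tests were chosen with earlier results of these data known. Named besides the members are the 2 nearest genes by each correlation and up to 3 called genes per list and comparison, by smallest p. Some further markers are named by their group means or by their values on the arrays that stood apart. Alternatives covered normalization, centring, scaling, array weights, priors, feature choice, filters, threshold, the title number and each array left out. Leaving out Wnt1 replicate 3 and iFGFR2 replicate 1 together was chosen after seeing the data. Replicate numbers follow accession order and pair nothing.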

Additional observations from a re-analysis of the deposited data

Results flagged for a closer look

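Within 32 groups of arrays (8 genes in 4 groups), 4 held an array far from its group by Dixon's criterion, where chance gives about 1 in 20 groups. All 4 lay on the same 2 arrays. On Wnt1 replicate 3, Mgp stood at 0.68 and Fibin at -2.18, each below the other five arrays. On iFGFR2 replicate 1, Mgp stood at 0.24 and Hp at -5.74, each below the other three.

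Differences between receptor groups were past the threshold of the limma fit for 6 genes, on arrays that the choice of genes had used. For iFGFR2 minus iFGFR1 they were 4.04 for Snorc, 3.44 for Apod, 2.5 for Sobp, 2.32 for Mgp and 1.55 for Ecrg4. For iR2 minus iFGFR1 they were 4.39 for Apod, 4.29 for Snorc, 3.46 for Mgp, 2.49 for Fibin, 2.37 for Sobp and 1.75 for Ecrg4. In each case iFGFR1 had the lower mean.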

How the results depend on the processing

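No difference of the 8 genes that was called in any fit changed sign, and all 8 falls in iFGFR1 were called under every alternative run. For iR2 minus Wnt1 the 4 calls became 2 under quantile normalization, 1 at an adjusted p under 0.01 and 0 with the title number as a covariate, whose values on the iR2 arrays lie above those on all other arrays. They were 1 to 4 with 1 array left out, 2 without Wnt1 replicate 2 or iR2 replicate 2 and 1 without iR2 replicate 1 or 3. For iFGFR2 minus iFGFR1 the 5 calls became 2 at an adjusted p under 0.01 and 2 to 5 with 1 array left out (2 without iFGFR1 replicate 3 or iFGFR2 replicate 4, 3 without iFGFR2 replicate 3), and 7 without Wnt1 replicate 3 and iFGFR2 replicate 1 together. For iR2 minus iFGFR1 the 6 became 2 with the title number. Values below every Wnt1 array numbered 31 of 32 in iFGFR1, 18 in iFGFR2 and 13 in iR2. They were 22 in iR2 without Wnt1 replicate 3, alone or with iFGFR2 replicate 1 (9 of 24 to 22 of 32 over single arrays), and 11 of 24 (without iFGFR2 replicate 1) to 24 of 32 in iFGFR2. Counts over all genes moved more. At an adjusted p under 0.01 they were 1023, 82, 235, 112, 789 and 30 for iFGFR1, iFGFR2 and iR2 minus Wnt1, iFGFR2 and iR2 minus iFGFR1, and iR2 minus iFGFR2, from 2608, 579, 1199, 360, 1968 and 227. With only the compared arrays they were 143, 2317 and 71 for iFGFR2 and iR2 minus Wnt1 and iFGFR2 minus iFGFR1. Scaling gave 2797 for iR2 minus Wnt1, 184 for iFGFR2 minus iFGFR1, 3235 for iR2 minus iFGFR1 and 1588 for iR2 minus iFGFR2, and array weights gave 5207, 202 and 1138 for iR2 minus Wnt1, iFGFR2 minus iFGFR1 and iR2 minus iFGFR2. The title number gave 52, 265 and 2 for iR2 minus Wnt1, iFGFR1 and iFGFR2, and quantile normalization 19 for the last. With 1 array left out the ranges were 99 to 1470 (iFGFR2 minus Wnt1), 303 to 1883 (iR2 minus Wnt1), 183 to 530 (iFGFR2 minus iFGFR1), 1172 to 2338 (iR2 minus iFGFR1) and 19 to 326 (iR2 minus iFGFR2). Without both Wnt1 replicate 3 and iFGFR2 replicate 1 they were 2417 for iR2 minus Wnt1, 544 for iFGFR2 minus iFGFR1, 363 for iR2 minus iFGFR2 and 2689 for iR2 minus iFGFR1. The cause was not tested. No paired analysis was possible because replicate numbers follow accession order.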

Other observations

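On Wnt1 replicate 3, where 5 of the 8 genes were lowest in their group, the milk casein gene Csn2 stood at 6.71, against a Wnt1 mean of 1.16, the alveolar regulator gene Elf5 at 5.44 against 2.74, and the matrix genes Dcn and Col3a1 at -0.75 and -1.11 against -3.01 and -3.49. Other genes of the same marker lists were lower there. They were Pdgfra (-1.92 against -0.97), Fbln1 (0.58 against 1.06), Aldh1a3 (0.35 against 1.80), Cxcl1 (-0.17 against 0.58) and Itga2 (-0.39 against -0.05). On iFGFR2 replicate 1, where 7 of the 8 were lowest, the oestrogen receptor gene Esr1 stood at -3.16 against an iFGFR2 mean of -0.63, the stem cell gene Lgr5 at -2.35 against -0.29, and the contractile genes Cnn1 and Myh11 at 0.77 and 0.06 against -2.12 and -2.02. Some genes of the same lists ran the other way on iFGFR2 replicate 1. Among them Prom1 was higher (3.09 against 2.56), and Tagln (-1.02 against -0.85), Des (-4.16 against -3.86) and Mustn1 (-3.96 against -2.88) were lower. Each group mean given here includes the array set against it and is drawn towards that array's value. Both arrays were singled out after their values were seen.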
